A study of Drosophila melanogaster with 12 samples.

Results

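Guidance cues, their receptors and related adhesion proteins were followed in glial nuclei of Drosophila larvae mutant for either of 2 subunits of a histone deubiquitinase. The set holds 43 genes, chosen by symbol as axon guidance ligands, receptors and adhesion partners, with earlier results of these data known. Of these, 41 had an identifier in the count files, and all 41 passed the filter on low counts, out of 9966 genes tested and 15682 genes listed. *hbs* and *Sema5c* were matched through older identifiers, taken from the study's lists of genes it had called in these libraries. Both thus entered only because they were already called, so their calls here are not independent evidence. *Dscam2* and *Ten-a* were not analysed here.

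RNA-seq had been performed on nuclear RNA from wild-type, *nonstop* and *sgf11* wandering larvae of the third instar, with 4 libraries per genotype and 12 in all. Nonstop and Sgf11 are subunits of the module of the SAGA coactivator that removes ubiquitin from histone H2B, and the comparison of each mutant with wild type asks which glial genes change when that activity is lost. In all 3 genotypes the glial driver repo-GAL4 expressed the nuclear membrane tag UAS-GFP-Msp300KASH, inserted at attP2, and GFP-labeled nuclei were affinity enriched from pooled dissected brains with eye-antennal discs. Each library is therefore a pool of many larvae and of all *repo*-expressing glial types, not of 1 animal or 1 glial subtype. Wild-type larvae carried both transgenes over the TM3, Sb1 balancer. *nonstop* larvae were homozygous for the PZ insertion not02069, with the ry506 marker, and *sgf11* larvae were homozygous for the PBac RB insertion CG13379e01308. Both mutations are thus carried by the whole animal and not by glia alone, and both mutants differ from wild type also in the balancer.

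Growing axons are steered by secreted and membrane-bound cues that are read by receptors on the growth cone. Slits, Netrins and Semaphorins are the classical cue families, and Robo, Frazzled, Unc-5, Off-track and the plexins receive them, while immunoglobulin superfamily proteins such as Dscam, Fasciclin, Beat and Side decide which surfaces adhere. In the larval visual system of the fly, photoreceptor axons leave the eye disc and stop among glia of the lamina or pass on to the medulla. Glia serve there both as sources of cues and as migrating cells that use guidance receptors themselves.

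Libraries held 6913032 to 11459317 counts assigned to genes, so that 1 CPM (a count scaled to the size of its library) stood for about 6.6 to 11.8 reads. Each mutated gene was low in its own mutant. *not* averaged 26.8 ± 2.43 CPM in wild-type and 9.79 ± 0.91 CPM in *nonstop* libraries (SD, n = 4 each), and was lower in *sgf11* too, at 17.2 ± 2.57 CPM (log2 fold change -0.63, FDR = 6.62e-04 from edgeR). *Sgf11* fell from 4.73 ± 1.41 CPM (SD, n = 4) in wild type to 0.069 ± 0.080 CPM (SD, n = 4) in *sgf11*. The glial marker *repo* averaged 147.9 ± 11.5 CPM in wild-type, 121.1 ± 19.7 CPM in *nonstop* and 126.0 ± 21.2 CPM in *sgf11* libraries (SD, n = 4 each) and was not called in either mutant. All 14 glial markers had counts, and they moved in both directions. In *nonstop* 5 rose and 3 fell (18.7% and 17.0% of all genes tested), and in *sgf11* 4 rose and 0 fell (16.4% and 14.1%). Neuronal markers had counts as well. The summed level of 10 such markers was 880.3 to 1185 CPM in wild-type, 1229 to 1429 CPM in *nonstop* and 1181 to 1375 CPM in *sgf11* libraries. Of the 10, 5 were higher in both mutants (13.1% of all genes tested), 0 were lower and 0 were at a count of 0. The 8 neuroblast and progenitor markers summed to 127.0 to 145.0 CPM in wild type, 86.8 to 113.8 CPM in *nonstop* and 81.4 to 118.7 CPM in *sgf11*. Of these, 2 were lower in *nonstop* (17.0% of all genes tested), 4 were lower in *sgf11* (14.1%) and 0 were at a count of 0. The 9 photoreceptor and eye disc markers summed to 127.7 to 147.7 CPM in wild type, 113 to 131.2 CPM in *nonstop* and 109.8 to 116.8 CPM in *sgf11*. For 4 fat body markers the sums were 47.6 to 106.8, 24.6 to 41.2 and 54.9 to 123.8 CPM in the same order. Sums of hemocyte, muscle, and trachea and epidermis markers overlapped between the genotypes. The part of these other cells in the differences given here was not tested. In nuclear RNA pooled from tissue, fewer cells of a type and less RNA per cell cannot be told apart.

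Many of the guidance genes shared an order over the wild-type libraries. Wild-type replicate 3 was the highest of the 4 wild-type libraries for 28 of the 41 genes (68.3%), against 26.35% of all genes tested, and wild-type replicate 1 was the lowest for 25 of them (61.0%), against 28.3%. Their summed level was 5536, 6450, 6936 and 5902 CPM in wild-type replicates 1 to 4, and the neuronal markers stood in the same order, at 880.3, 976.9, 1185 and 939.9 CPM. In the mutants the sums were 5888, 6445, 6256 and 5901 CPM for *nonstop* and 6038, 5921, 6186 and 5106 CPM for *sgf11*. The neuronal markers did not stand in the order of these sums in either mutant. They were at 1263, 1229, 1327 and 1429 CPM in *nonstop* and at 1267, 1181, 1235 and 1375 CPM in *sgf11*. All 3 genotypes overlapped in the sum of the guidance genes. Results that change without either wild-type library are given with that value.

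In the wild-type libraries the level of the 41 genes, as FPKM (CPM per kilobase of exon), spanned from *sli*, which encodes the secreted repellent Slit, to *fred*, an adhesion protein related to Echinoid. *sli* stood at 157 ± 7.73 FPKM (SD, n = 4), which was 3.11 times the level of *fra*, the attractive Netrin receptor Frazzled, at 50.6 ± 8.49 FPKM (SD, n = 4). The 4 *sli* libraries lay between 146.7 and 165.0 FPKM and the 4 *fra* libraries between 42.6 and 58.1 FPKM, without overlap. After *fra* came *Sema1a* at 44.0 ± 5.99 FPKM, *Dscam1* at 38.4 ± 5.96 FPKM, *Ptp69D* at 37.5 ± 4.46 FPKM, *Ten-m* at 36.8 ± 4.53 FPKM, *uzip* at 35.6 ± 2.94 FPKM and *Sema1b* at 34.2 ± 2.78 FPKM (SD, n = 4 each). Neighbours in this order overlapped in their ranges over the libraries in 38 of 40 pairs, the exceptions being *sli* with *fra* and *beat-Ia* with *Dscam3*. Both genes of a pair were measured in the same 4 libraries, so an overlap of ranges does not show that a rank is unresolved. *fra*, for example, was above *Sema1a* within each of the 4 libraries, although their ranges overlapped.

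The median of the 41 genes was 12.8 FPKM, with 23 above 10 FPKM and 39 above 1 FPKM. The 2 genes under 1 FPKM were *kirre* at 0.836 ± 0.163 FPKM and *fred* at 0.727 ± 0.155 FPKM (SD, n = 4 each), and the lowest count of any of the 41 genes in a library was 10 reads. Members of 1 family differed in level. Of the Robo receptors, *robo1* at 20.9 ± 3.67 FPKM was 2.33 times as high as *robo2* at 8.99 ± 1.57 FPKM, and *robo3* was at 3.67 ± 0.681 FPKM (SD, n = 4 each). Of the secreted Netrins, *NetB* at 8.14 ± 1.29 FPKM was 6.96 times as high as *NetA* at 1.17 ± 0.249 FPKM (SD, n = 4 each). These levels are per exon length of the BDGP6 annotation, and nuclear RNA also holds unspliced transcripts. In the same libraries the 10 neuronal markers averaged from 1.76 FPKM (*jeb*) to 38.2 FPKM (*Syx1A*). The study treated *NetA* and *robo3* as neuronal markers. Which cells gave the RNA of each gene was not tested.

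**Figure D1:**
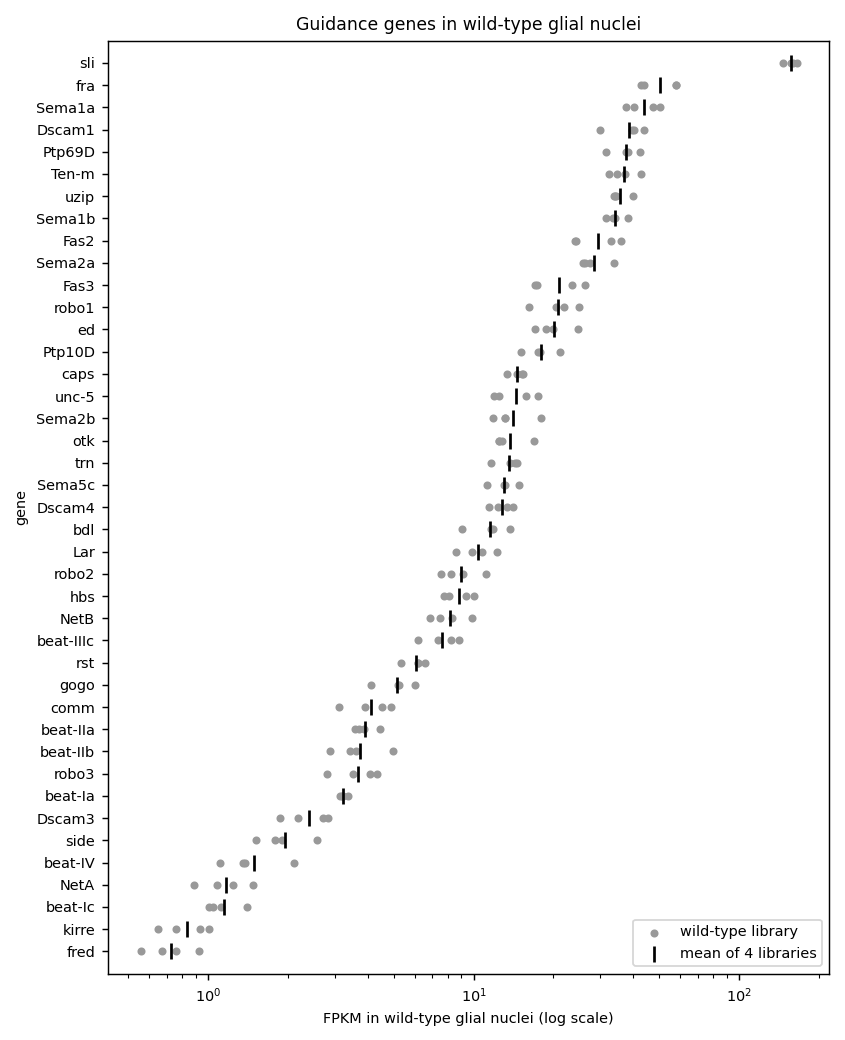
FPKM (horizontal axis, log scale) of the 41 guidance genes in wild-type glial nuclei, in order of their mean (vertical axis), with 1 point per library and a bar at the mean of 4 libraries. *sli* stands apart at 157.3 FPKM, the genes from *fra* to *Lar* lie between 10.4 and 50.6 FPKM, and *fred* is lowest at 0.727 FPKM.

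A minority of these genes changed in either mutant, and by modest amounts. In *nonstop* glia 3 of the 41 genes rose (*fra*, *Sema1a* and *bdl*) and 8 fell (*Ptp69D*, *Ten-m*, *uzip*, *Sema1b*, *otk*, *hbs*, *beat-IIIc* and *side*) past a false discovery rate (FDR) threshold of 0.01 in edgeR's quasi-likelihood fit. That is 26.8% of the 41, against 35.7% of all genes tested, and by direction 7.32% against 18.7% for genes that rose and 19.5% against 17.0% for genes that fell. In *sgf11* glia 4 rose (*fra*, *unc-5*, *rst* and *bdl*) and 7 fell (*Ptp69D*, *Ten-m*, *uzip*, *Sema1b*, *otk*, *Sema5c* and *side*), again 26.8%, against 30.5% of all genes, with 9.76% against 16.4% for genes that rose and 17.1% against 14.1% for genes that fell. *fra* and *bdl* rose in both mutants, where the share of all genes was 13.1%, and *Ptp69D*, *Ten-m*, *uzip*, *Sema1b*, *otk* and *side* fell in both, where it was 11.8%. The 4 wild-type libraries are shared by both comparisons. The remaining 27 genes were called in neither mutant. The calls include *hbs* in *nonstop* and *Sema5c* in *sgf11*, which could be matched only because the study had called them.

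The median absolute log2 fold change (log2FC) of the 41 genes was 0.28 in *nonstop*, against 0.43 over all genes tested, and 0.28 in *sgf11*, against 0.39. A log2 fold change of at least 1 in either direction was seen for 0 of the 41 genes in *nonstop* (18.45% of all genes) and for 1, *bdl*, in *sgf11* (16% of all genes). The median signed log2 fold change was 0.05 in *nonstop* (0.006 over all genes) and -0.11 in *sgf11* (0.015 over all genes). The libraries of *nonstop* were all above wild type for 6 of the 41 genes (21.8% of all genes tested) and all below it for 7 (21.1%), and those of *sgf11* were above for 3 (20.3%) and below for 6 (19.3%). Over both mutants, every mutant library exceeded every wild-type library for *fred* and *bdl* (4.88% of the 41, against 14.9% of all genes) and was exceeded by them all for *Sema1b*, *otk*, *side*, *Ten-m* and *uzip* (12.2%, against 15.3%).

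Leaving out wild-type replicate 3, in which most of these genes were highest, gave 5 genes that rose and 6 that fell in *nonstop*, and 6 that rose and 6 that fell in *sgf11*. Genes that rose in both were then *fra*, *unc-5*, *Sema1a*, *fred* and *bdl*, and those that fell in both were *Ten-m*, *uzip*, *Sema1b* and *otk*. Without wild-type replicate 1 the counts were 3 that rose and 9 that fell in *nonstop*, and 2 that rose and 7 that fell in *sgf11*, with only *bdl* higher in both.

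**Figure D2:**
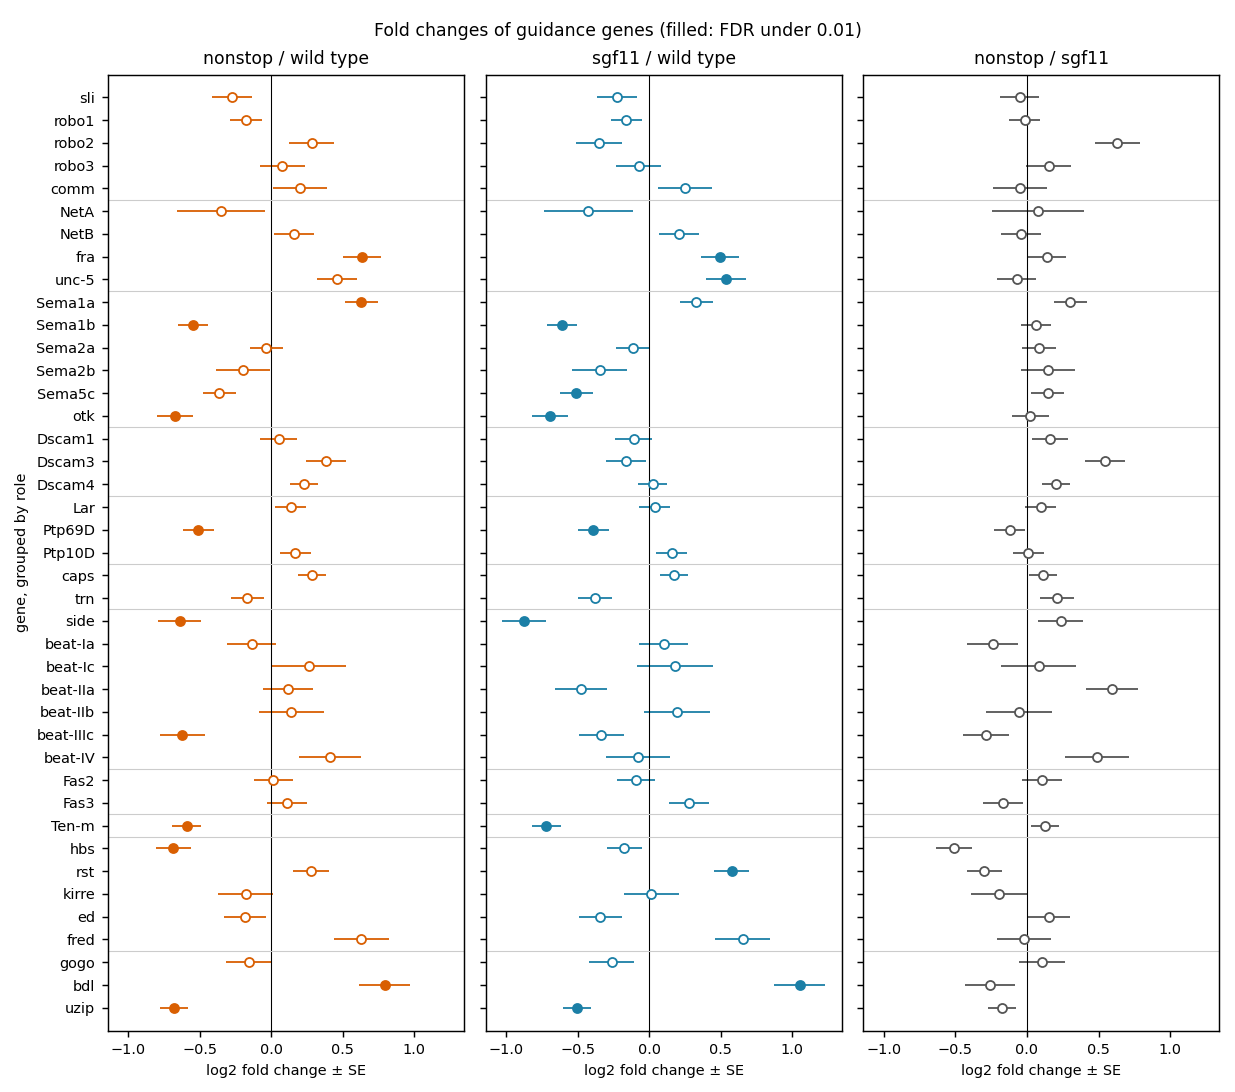
Log2 fold change with its SE (horizontal axis) of the 41 guidance genes, grouped by role (vertical axis, groups set apart by lines), for *nonstop* over wild type, *sgf11* over wild type and *nonstop* over *sgf11*. Filled points passed an FDR of 0.01, which 11 did in each mutant and 0 did between the mutants, and the values run from -0.88 (*side* in *sgf11*) to 1.05 (*bdl* in *sgf11*).

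Slit and its receptors did not pass the test in either mutant. *sli* was at 1537, 1587, 1515 and 1411 CPM in the wild-type libraries, at 1293, 1541, 1008 and 1157 CPM in *nonstop* and at 1257, 1381, 1487 and 1055 CPM in *sgf11*. Its mutant values were lower on average and overlapped those of wild type (log2FC -0.28, SE 0.14, FDR = 0.105 in *nonstop* and log2FC -0.22, SE 0.14, FDR = 0.196 in *sgf11*, edgeR quasi-likelihood test). For *robo1*, the main Slit receptor, the log2 fold changes were -0.18 and -0.16, with FDR = 0.195 and 0.252 in *nonstop* and *sgf11* from the same test. *robo3* stayed within -0.07 and 0.08 (FDR = 0.733 and 0.705). *comm*, which keeps Robo from the surface of crossing axons, was at 10.2 ± 1.91, 11.8 ± 0.60 and 12.04 ± 3.68 CPM in wild type, *nonstop* and *sgf11* (SD, n = 4 each), with FDR = 0.395 and 0.294 from edgeR.

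The receptor *robo2* had values on opposite sides of wild type in the mutants. It was at 51.0, 46.6, 69.1 and 56.5 CPM in wild type, at 57.2, 60.3, 82.7 and 71.3 CPM in *nonstop* and at 55.6, 32.4, 41.3 and 44.9 CPM in *sgf11*. Each mutant overlapped wild type, but every *nonstop* library was above every *sgf11* library. Over wild type the log2FC of *nonstop* was 0.28 ± 0.16 (SE, FDR = 0.148) and that of *sgf11* was -0.35 ± 0.16 (SE, FDR = 0.0844), and that of *nonstop* over *sgf11* was 0.63 (SE 0.16, FDR = 0.0302, edgeR quasi-likelihood test). The direct comparison of the mutants missed the threshold of 0.01 in edgeR and passed it in DESeq2 (log2 fold change 0.65, FDR = 0.00631).

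The Netrin receptor genes *fra* and *unc-5* had higher values in the mutants, while the Netrins did not pass the test. *fra* was at 278, 367, 365 and 269 CPM in wild type, at 477, 527, 542 and 442 CPM in *nonstop* and at 518, 471, 451 and 364 CPM in *sgf11*. All *nonstop* libraries were above all wild-type libraries, and 1 *sgf11* library, replicate 4, lay among the wild-type values. *fra* thus rose 1.55-fold in *nonstop* (log2FC 0.64, SE 0.13, FDR = 7.43e-04) and 1.41-fold in *sgf11* (log2FC 0.50, SE 0.13, FDR = 0.00559, edgeR quasi-likelihood test). The *sgf11* call was lost without wild-type replicate 1 (log2 fold change 0.44, FDR = 0.018), wild-type replicate 4 (0.43, FDR = 0.0188), *sgf11* replicate 1 (0.43, FDR = 0.018), *sgf11* replicate 2 (0.47, FDR = 0.0154) or *sgf11* replicate 3 (0.50, FDR = 0.0135), by the same test, and with library size as the only scaling (0.44, FDR = 0.0209).

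*unc-5*, the repulsive Netrin receptor, was at 62.7, 82.8, 91.7 and 65.1 CPM in wild type, at 101.2, 102, 120.1 and 93.3 CPM in *nonstop* and at 126, 109.7, 118 and 83.8 CPM in *sgf11*. The *nonstop* libraries were all above wild type, and *sgf11* replicate 4 overlapped wild type. The gene rose 1.45-fold in *sgf11* (log2FC 0.54, SE 0.14, FDR = 0.00506, edgeR quasi-likelihood test), and in *nonstop* it missed the threshold (log2FC 0.46, SE 0.14, FDR = 0.0113). The *sgf11* call was lost without wild-type replicate 1 (log2 fold change 0.46, FDR = 0.0192), wild-type replicate 4 (0.48, FDR = 0.0175), *sgf11* replicate 1 (0.46, FDR = 0.0176), *sgf11* replicate 2 (0.53, FDR = 0.0113) or *sgf11* replicate 3 (0.50, FDR = 0.0172), by the same test, and with library size as the only scaling (0.48, FDR = 0.0222). In *nonstop* the threshold was passed without wild-type replicate 3 (log2 fold change 0.59, FDR = 0.0029). The gene was also called there in 5 of the 8 other alternatives, among them DESeq2 (FDR = 0.00646) and a looser FDR threshold of 0.05. *unc-5* shares 4.34% of its exon bases with *Pms2*.

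The ligand *NetB* was at 66.5 ± 10.5, 74.3 ± 16.1 and 76.7 ± 5.15 CPM in wild type, *nonstop* and *sgf11*, and *NetA* at 3.91 ± 0.833, 3.03 ± 1.08 and 2.84 ± 1.12 CPM (SD, n = 4 each). For *NetB* the log2 fold changes were 0.16 and 0.21 with FDR = 0.355 and 0.247, and for *NetA* they were -0.35 and -0.42 with FDR = 0.365 and 0.284 from edgeR. All groups overlapped for both ligands. The SE of 0.31 for *NetA* is the largest among the 41 genes in each mutant comparison.

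The semaphorins included genes that rose and genes that fell. *Sema1a*, a transmembrane semaphorin that acts both as a ligand and as a receptor in photoreceptor axons, was at 384, 482, 516 and 412 CPM in wild type, at 598, 752, 742 and 684 CPM in *nonstop* and at 573, 603, 573 and 502 CPM in *sgf11*. Every *nonstop* library was above every wild-type library, and *sgf11* replicate 4 fell just below the highest wild-type value. *Sema1a* rose 1.55-fold in *nonstop* (log2FC 0.63, SE 0.12, FDR = 2.63e-04, edgeR quasi-likelihood test). In *sgf11* it missed the threshold (log2FC 0.33, SE 0.12, FDR = 0.0288), and passed it without wild-type replicate 3 (log2 fold change 0.42, FDR = 0.00934). It was also called in 2 of the 8 other alternatives, a stricter filter on low counts and a looser FDR threshold of 0.05. The difference between the mutants was 0.30 ± 0.12 on the log2 scale (SE, FDR = 0.181).

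*Sema1b*, the close relative of *Sema1a*, went the other way. It was at 152, 155, 174 and 144 CPM in wild type, at 89.7, 107, 125 and 107 CPM in *nonstop* and at 109.7, 106, 96.4 and 97.8 CPM in *sgf11*. The 8 mutant libraries were all below the 4 wild-type libraries. The gene fell 1.46-fold in *nonstop* (log2FC -0.55, SE 0.10, FDR = 3.41e-04) and 1.52-fold in *sgf11* (log2FC -0.61, SE 0.10, FDR = 1.60e-04, edgeR quasi-likelihood test), and both calls held under every alternative run. *Sema1b* had been picked by the study on these libraries, so its direction here is not independent evidence.

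Off-track and Sema5c also had lower values. *otk*, a transmembrane protein related to receptor tyrosine kinases and linked to semaphorin signaling, was at 61.0, 59.6, 80.5 and 59.5 CPM in wild type, at 38.1, 34.7, 46.9 and 43.8 CPM in *nonstop* and at 43.9, 44.4, 35.6 and 37.1 CPM in *sgf11*. Wild-type replicate 3 was well above the other wild-type libraries, and all mutant libraries were below wild type. *otk* fell 1.59-fold in *nonstop* (log2FC -0.67, SE 0.13, FDR = 3.13e-04) and 1.62-fold in *sgf11* (log2FC -0.69, SE 0.13, FDR = 2.90e-04, edgeR quasi-likelihood test). Without wild-type replicate 3 the log2 fold changes were -0.53 and -0.56 and both calls held.

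*Sema5c*, a transmembrane semaphorin with thrombospondin repeats, was at 49.2, 56.9, 64.9 and 57.7 CPM in wild type, at 43.5, 52.8, 42.5 and 39.2 CPM in *nonstop* and at 41.4, 43.6, 41.2 and 34.6 CPM in *sgf11*. All *sgf11* libraries were below wild type, while *nonstop* replicate 2 overlapped it. It fell 1.42-fold in *sgf11* (log2FC -0.51, SE 0.12, FDR = 0.00181) and missed the threshold in *nonstop* (log2FC -0.36, SE 0.12, FDR = 0.0139, edgeR quasi-likelihood test), where it passed without wild-type replicate 1 (FDR = 0.00716) or *nonstop* replicate 2 (FDR = 0.00389). In *nonstop* it was also called in 4 of the 8 other alternatives, a looser FDR threshold of 0.05 among them. The secreted semaphorins *Sema2a* and *Sema2b* had log2 fold changes of -0.03 and -0.20 in *nonstop* (FDR = 0.831 and 0.403) and of -0.12 and -0.35 in *sgf11* (FDR = 0.452 and 0.151), with overlapping libraries.

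The Dscam family gave no call. *Dscam1*, whose many splice forms let neurites of 1 cell recognize each other, was at 1018 ± 158, 1055 ± 44.2 and 944 ± 131 CPM in wild type, *nonstop* and *sgf11* (SD, n = 4 each), and its log2 fold changes were 0.05 and -0.11 (FDR = 0.76 and 0.519 from edgeR). For *Dscam4* they were 0.23 and 0.03 (FDR = 0.0649 and 0.859). *Dscam3* was at 15.9, 23.0, 24.1 and 18.6 CPM in wild type, 25.4, 23.5, 27.5 and 29.9 CPM in *nonstop* and 18.4, 18.8, 15.4 and 20.3 CPM in *sgf11*. Its *nonstop* libraries were all above its *sgf11* libraries, and both mutants overlapped wild type. The log2 fold change of *nonstop* over *sgf11* was 0.55 (SE 0.14, FDR = 0.0341), that of *nonstop* over wild type was 0.38 (FDR = 0.0286) and that of *sgf11* over wild type was -0.16 (FDR = 0.371), all from edgeR.

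Of the receptor tyrosine phosphatases, which transmit guidance signals in motor and photoreceptor axons, 1 changed. *Ptp69D* was at 164, 194, 219.8 and 198 CPM in wild type, at 128, 151, 132 and 134 CPM in *nonstop* and at 166, 128, 159 and 138 CPM in *sgf11*. All *nonstop* libraries were below wild type, and *sgf11* replicate 1 reached into the wild-type range. It fell 1.42-fold in *nonstop* (log2FC -0.51, SE 0.11, FDR = 9.95e-04) and 1.31-fold in *sgf11* (log2FC -0.39, SE 0.11, FDR = 0.00786, edgeR quasi-likelihood test). The *sgf11* call was the least stable of the 22. It was lost without wild-type replicate 2 (FDR = 0.0227), wild-type replicate 3 (FDR = 0.0363), wild-type replicate 4 (FDR = 0.0218), *sgf11* replicate 2 (FDR = 0.0305), *sgf11* replicate 3 (FDR = 0.0109) or *sgf11* replicate 4 (FDR = 0.0291), with log2 fold changes between -0.43 and -0.31, and in 4 of the 8 other alternatives.

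*Lar*, which stabilizes photoreceptor axons in their target layer, was at 107 ± 15.9, 118 ± 12.2 and 110.2 ± 3.77 CPM in wild type, *nonstop* and *sgf11*, and *Ptp10D* at 156 ± 22.1, 175 ± 9.10 and 174 ± 18.3 CPM (SD, n = 4 each). Neither passed the test, with FDR = 0.319 and 0.798 for *Lar* and FDR = 0.217 and 0.258 for *Ptp10D* in *nonstop* and *sgf11* from edgeR. The same holds for the leucine-rich repeat proteins *caps*, a recognition protein of photoreceptor axons and their targets, and *trn*, its relative. *caps* had log2 fold changes of 0.28 (FDR = 0.0241) and 0.17 (FDR = 0.169) and *trn* of -0.17 (FDR = 0.258) and -0.38 (FDR = 0.0159) in *nonstop* and *sgf11*.

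Side and the Beat proteins form ligand and receptor pairs that guide motor axons, and of the 7 measured, *side* fell in both mutants. *side*, which encodes the ligand, was at 17.8, 20.9, 30.1 and 22.3 CPM in wild type, at 12.7, 16.8, 14.3 and 14.7 CPM in *nonstop* and at 12.2, 11.2, 12.9 and 13.3 CPM in *sgf11*. All mutant libraries were below all wild-type libraries, and the margin in *nonstop* was narrow, 16.8 against 17.8 CPM. The gene fell 1.56-fold in *nonstop* (log2FC -0.64, SE 0.15, FDR = 0.00213) and 1.83-fold in *sgf11* (log2FC -0.88, SE 0.15, FDR = 2.05e-04, edgeR quasi-likelihood test), and the fall in *sgf11* was the largest among the 41 genes. The *nonstop* call was lost without wild-type replicate 3 (log2 fold change -0.45, FDR = 0.0126), and the *sgf11* call held under every alternative in which *side* was tested. *side* was not tested under the stricter filter.

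*beat-IIIc*, a member of the Beat family, was at 24.0, 32.1, 34.4 and 28.7 CPM in wild type, at 15.9, 24.4, 16.6 and 20.4 CPM in *nonstop* and at 20.6, 25.6, 28.9 and 19.8 CPM in *sgf11*. *nonstop* replicate 2 lay just inside the wild-type range, and the *sgf11* libraries overlapped it widely. It fell 1.54-fold in *nonstop* (log2FC -0.62, SE 0.16, FDR = 0.00364) and did not pass in *sgf11* (log2FC -0.34, SE 0.16, FDR = 0.0925, edgeR quasi-likelihood test). The call was lost without wild-type replicate 2 (FDR = 0.0129), wild-type replicate 3 (FDR = 0.0156), *nonstop* replicate 1 (FDR = 0.0151) or *nonstop* replicate 3 (FDR = 0.0108), and with a stricter filter on low counts and its own scaling (log2 fold change -0.48, FDR = 0.0146).

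The 5 remaining Beat genes were low, at 4.99 to 12.4 CPM in wild type, and none passed the test. *beat-Ia*, the receptor for Side, had log2 fold changes of -0.14 (FDR = 0.536) in *nonstop* and 0.10 (FDR = 0.661) in *sgf11* from edgeR. For *beat-Ic* they were 0.26 and 0.18, for *beat-IIb* 0.14 and 0.20, and for *beat-IV* 0.41 and -0.08. *beat-IIa* had 0.12 (FDR = 0.602) in *nonstop* and -0.48 (FDR = 0.0397) in *sgf11*. All of these overlapped wild type.

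Among the homophilic and teneurin adhesion proteins, *Ten-m* fell and the fasciclins did not pass the test. *Ten-m*, a teneurin that matches synaptic partners in the fly olfactory system, was at 424, 489.9, 562 and 455 CPM in wild type, at 308, 311, 346 and 317 CPM in *nonstop* and at 314, 276, 295 and 288 CPM in *sgf11*. The mutant libraries all lay below wild type with a clear gap. *Ten-m* fell 1.51-fold in *nonstop* (log2FC -0.59, SE 0.10, FDR = 1.24e-04) and 1.65-fold in *sgf11* (log2FC -0.72, SE 0.10, FDR = 2.36e-05, edgeR quasi-likelihood test), and both calls held under every alternative run. *Fas2*, the fly NCAM, had log2 fold changes of 0.01 (FDR = 0.946) and -0.09 (FDR = 0.614), and *Fas3*, a septate junction and axonal adhesion protein, of 0.11 (FDR = 0.537) and 0.28 (FDR = 0.116) in *nonstop* and *sgf11*.

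The immunoglobulin proteins Hibris, Roughest and Kirre, which sort cells in the eye by binding each other across cell borders, gave 1 call in each mutant. *hbs* was at 44.3, 55.1, 51.3 and 42.5 CPM in wild type, at 30.8, 29.2, 33.3 and 27.2 CPM in *nonstop* and at 51.8, 44.1, 38.1 and 36.5 CPM in *sgf11*. The *nonstop* libraries were below those of both other genotypes, and the *sgf11* libraries spread over the wild-type range. *hbs* fell 1.61-fold in *nonstop* (log2FC -0.68, SE 0.12, FDR = 2.40e-04) and did not pass in *sgf11* (log2FC -0.17, SE 0.12, FDR = 0.261). The difference between the mutants, at a log2 fold change of -0.51 (SE 0.13), had the lowest FDR of the 41 genes in that comparison, 0.0268, and missed the threshold of edgeR's quasi-likelihood test.

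*rst*, which encodes Roughest, was at 33.3, 38.5, 41.0 and 38.6 CPM in wild type, at 48.6, 38.9, 57.6 and 38.9 CPM in *nonstop* and at 61.1, 55.0, 57.7 and 51.9 CPM in *sgf11*. The *sgf11* libraries were all above wild type, while the *nonstop* libraries split, with replicates 1 and 3 above wild type and replicates 2 and 4 within it. *rst* rose 1.49-fold in *sgf11* (log2FC 0.58, SE 0.12, FDR = 0.00116) and did not pass in *nonstop* (log2FC 0.28, SE 0.12, FDR = 0.0724, edgeR quasi-likelihood test), and the difference between the mutants was -0.30 on the log2 scale (SE 0.12, FDR = 0.217). In the BDGP6 annotation *rst* lies on the X chromosome within an intron of *kirre*, on the opposite strand. Counting used no strand, so unspliced *kirre* RNA over *rst* exons cannot be told apart from *rst*. *kirre* itself was at 6.56 ± 1.28, 5.84 ± 1.06 and 6.59 ± 0.631 CPM in wild type, *nonstop* and *sgf11* (SD, n = 4 each, FDR = 0.462 and 0.956).

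*ed* and *fred* encode adhesion proteins that are related in sequence. *fred*, friend of echinoid, was at 4.18, 5.05, 6.95 and 5.68 CPM in wild type, at 7.70, 9.72, 8.94 and 7.64 CPM in *nonstop* and at 9.22, 10.8, 7.18 and 7.24 CPM in *sgf11*. All mutant libraries were above all wild-type libraries. The test missed its threshold narrowly in *nonstop* (log2FC 0.63, SE 0.19, FDR = 0.0113) and in *sgf11* (log2FC 0.65, SE 0.19, FDR = 0.0105, edgeR quasi-likelihood test), and passed it in both without wild-type replicate 3 (FDR = 0.00379 and 0.00394), and in *sgf11* without *sgf11* replicate 3 (FDR = 0.00976) or 4 (FDR = 0.00917). In each mutant it was also called in 2 of the 7 other alternatives that tested it, DESeq2 and a looser FDR threshold of 0.05. *ed*, echinoid, had log2 fold changes of -0.19 (FDR = 0.308) and -0.34 (FDR = 0.0707), with overlapping libraries.

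Of the proteins known from visual system wiring, *bdl* rose the most of the 41 genes. Borderless is an immunoglobulin superfamily protein of glia and photoreceptor axons, and its gene lies on chromosome 2L of BDGP6 at chr2L:4324554-4331830 on the plus strand. It was also a qRT-PCR target in the study. The primers, both written 5′ to 3′, are shown because they define what that assay reads.
bdl forward primer: tacaatctcacggccaacag
bdl reverse primer: ttttatccaacacgcgaagc

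In RNA-seq *bdl* was at 24.6, 32.4, 37.4 and 31.8 CPM in wild type, at 66.7, 69.4, 45.1 and 38.0 CPM in *nonstop* and at 59.1, 72.6, 74.7 and 55.9 CPM in *sgf11*. All mutant libraries were above all wild-type libraries, and *nonstop* replicate 4, at 38.0 CPM, was close to the highest wild-type library, at 37.4 CPM. *bdl* rose 1.73-fold in *nonstop* (log2FC 0.79, SE 0.18, FDR = 0.00146) and 2.08-fold in *sgf11* (log2FC 1.05, SE 0.18, FDR = 1.45e-04, edgeR quasi-likelihood test), and both calls held under every alternative run. In each mutant the 2 libraries with the most *bdl* were also the 2 with the highest sum of the 14 glial markers. In *nonstop* replicates 1 to 4 that sum was 8895, 8667, 6186 and 6181 CPM, and in *sgf11* replicates 1 to 4 it was 6581, 9969, 9120 and 7631 CPM. Wild type went the other way. Its replicates 1 to 4 had sums of 6779, 6700, 6376 and 7049 CPM. The 2 wild-type libraries with the most *bdl*, replicates 3 and 2, had the 2 lowest of these sums. The sum of the glial markers mixes those that rose in *nonstop*, such as *Gat* (log2 fold change 1.28, FDR = 2.54e-04) and *alrm* (1.11, FDR = 6.76e-04), with markers that fell there, such as *spin* (-0.60, FDR = 5.61e-04) and *moody* (-0.54, FDR = 0.00467), by the same test. Its largest single part was *Mdr65*, at 2441 ± 492 CPM in *nonstop* and 2634 ± 594 CPM in *sgf11* (SD, n = 4 each), which was not called. The part of these markers in the rise of *bdl* was not tested. *bdl* had been chosen by the study on these libraries.

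*uzip* encodes Unzipped, an adhesion protein made by glia. It was at 140.2, 165, 139 and 142 CPM in wild type, at 96.4, 96.4, 91.7 and 81.5 CPM in *nonstop* and at 90.1, 114, 107 and 103 CPM in *sgf11*. The 8 mutant libraries were all below wild type, and wild-type replicate 2 was well above the other wild-type libraries. *uzip* fell 1.60-fold in *nonstop* (log2FC -0.68, SE 0.10, FDR = 2.42e-05) and 1.42-fold in *sgf11* (log2FC -0.50, SE 0.10, FDR = 5.15e-04, edgeR quasi-likelihood test), and both calls held under every alternative run, wild-type replicate 2 left out included. It too had been picked by the study on these libraries. *gogo*, Golden goal, a receptor of photoreceptor axons, had log2 fold changes of -0.16 (FDR = 0.428) in *nonstop* and -0.26 (FDR = 0.191) in *sgf11*, with overlapping libraries.

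**Figure D3:**
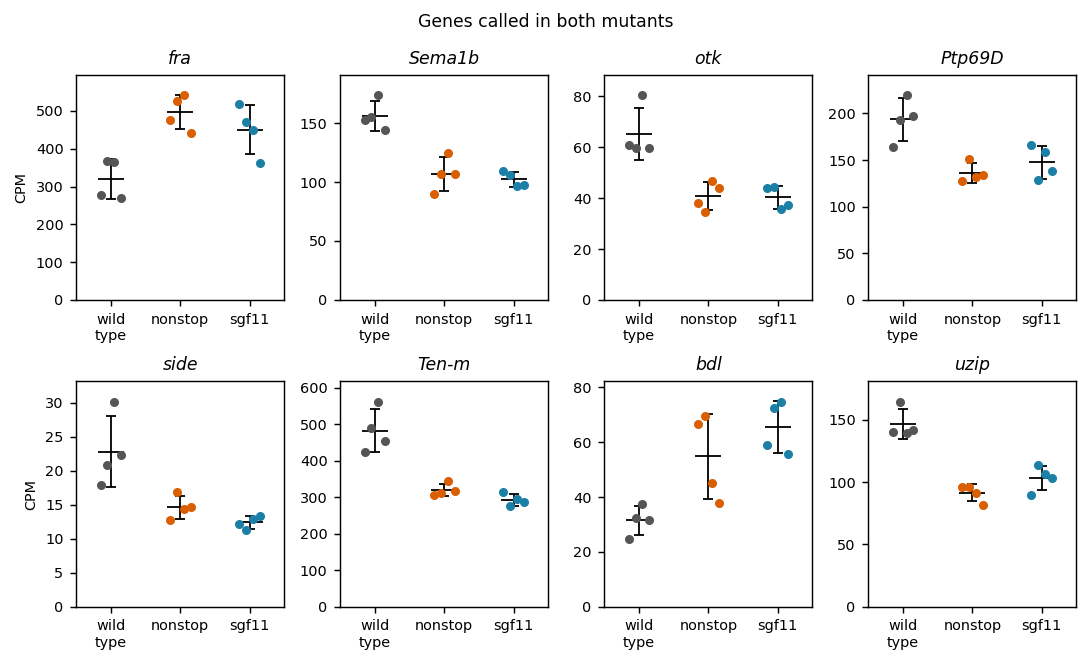
CPM (vertical axis, from 0) of the 8 guidance genes called in both mutants, with 1 point per library, replicates 1 to 4 from left to right, and the mean with its SD for wild type, *nonstop* and *sgf11*. *fra* and *bdl* are higher in the mutants (*bdl* at 31.5, 54.8 and 65.6 CPM on average) and the other 6 genes are lower (*Ten-m* at 482.7, 320.2 and 293.3 CPM).

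**Figure D4:**
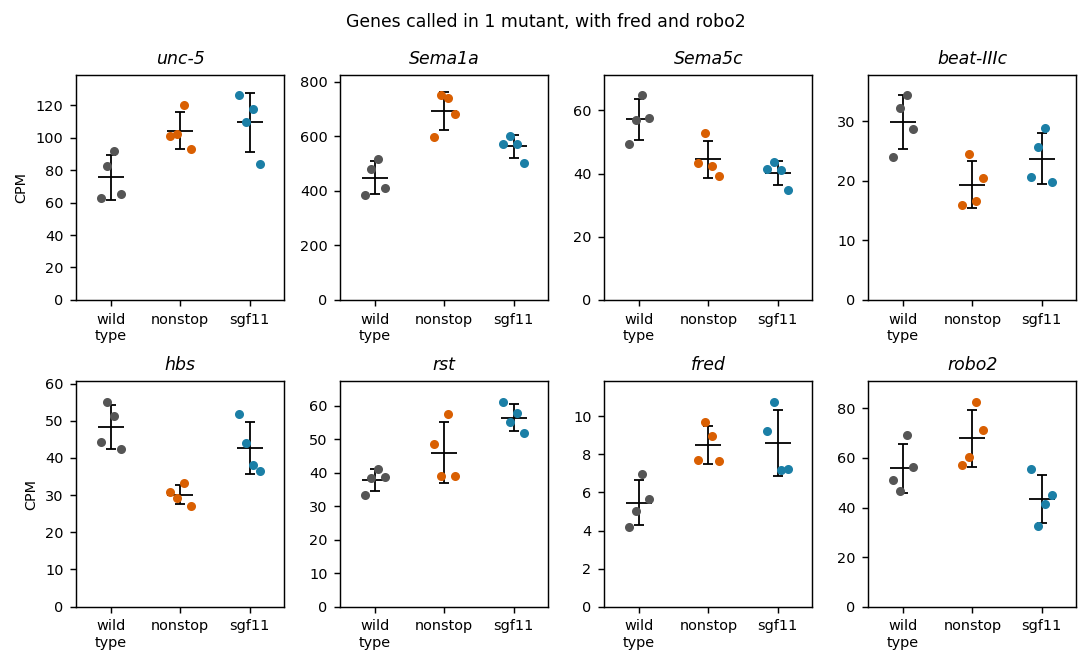
CPM (vertical axis, from 0) of the 6 guidance genes called in 1 mutant, and of *fred* and *robo2*, which were called in neither, with 1 point per library, replicates 1 to 4 from left to right, and the mean with its SD. *hbs* averages 30.1 CPM in *nonstop*, beside 42.6 in *sgf11* and 48.3 in the wild-type libraries, a difference between the mutants that missed the threshold (FDR = 0.0268 from edgeR), and *robo2* is at 67.9 CPM in *nonstop* and 43.6 CPM in *sgf11*.

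Between the mutants, 0 of the 41 genes passed edgeR's quasi-likelihood test at an FDR of 0.01, against 2.11% of all genes tested (0.823% higher and 1.28% lower in *nonstop*). At an unadjusted p under 0.05 there were 7 genes, and DESeq2 called 1, *robo2*. At an FDR of 0.05 edgeR called 3, *hbs*, *robo2* and *Dscam3*, which are also the 3 genes whose *nonstop* and *sgf11* libraries did not overlap. Of these, *robo2* and *Dscam3* were higher in *nonstop* (4.71% of all genes) and *hbs* was lower (5.51%). The genes called in 1 mutant only (*Sema1a*, *hbs* and *beat-IIIc* in *nonstop*, *unc-5*, *rst* and *Sema5c* in *sgf11*) are therefore not shown to differ between the mutants at this threshold.

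By chromosome, the genes that rose were on 2 and X. Of the 13 genes on chromosome 3, 0 rose in either mutant, 3 fell in *nonstop* and 4 in *sgf11*. Of all 4226 chromosome 3 genes tested, 781 rose and 762 fell in *nonstop* (36.5% called), and 698 rose and 643 fell in *sgf11* (31.7%). Chromosome 3 carried TM3 in wild type and the homozygous mutations in the mutants. All wild-type libraries and no mutant libraries had the balancer, so balancer and mutation cannot be told apart for genes of any chromosome. On chromosome 2, with 22 of the genes, 3 rose and 5 fell in *nonstop* and 3 rose and 3 fell in *sgf11* (35.2% and 29.6% of all chromosome 2 genes called). Of the 6 on the X chromosome 0 were called in *nonstop* (34.0% of all X genes) and *rst* rose in *sgf11* (27.9%).

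Other genes of guidance pathways were read from lists of further receptors and ligands, further Beat and Side genes, and effectors. Of 24 further receptors and ligands tested, 4 rose and 6 fell in *nonstop* and 2 rose and 6 fell in *sgf11*. Over all genes tested, 18.7% rose and 17.0% fell in *nonstop*, and 16.4% rose and 14.1% fell in *sgf11*. The largest mean changes among those called in both were *dlp*, the glypican Dally-like, with a log2FC (± SE) of 1.19 ± 0.14 (FDR = 4.29e-06) in *nonstop* glia and 0.89 ± 0.14 (FDR = 1.04e-04) in *sgf11* glia, and *drl*, the Wnt5 receptor Derailed, with 0.63 ± 0.10 (FDR = 8.76e-05) in *nonstop* glia and 0.52 ± 0.10 (FDR = 6.60e-04) in *sgf11* glia. On the other side, *fipi*, an immunoglobulin-domain protein known from courtship song, had -1.85 ± 0.14 (FDR = 2.12e-08) in *nonstop* glia and -1.15 ± 0.14 (FDR = 4.51e-06) in *sgf11* glia, and *Tollo*, a Toll-family leucine-rich repeat receptor, had -0.74 ± 0.10 (FDR = 1.61e-05) in *nonstop* glia and -0.77 ± 0.10 (FDR = 1.40e-05) in *sgf11* glia (edgeR quasi-likelihood test). Over these 24 genes the median log2 fold change was -0.02 in *nonstop* and -0.04 in *sgf11*, near that of all genes.

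Of 14 further Beat and Side genes, beside the same shares of all genes, 2 rose and 1 fell in *nonstop* and 1 rose and 1 fell in *sgf11*, and *side-IV* fell in both, with a log2FC (± SE) of -0.44 ± 0.11 (FDR = 0.00384) in *nonstop* glia and -0.60 ± 0.11 (FDR = 4.26e-04) in *sgf11* glia by edgeR's quasi-likelihood test. Many of the effectors link receptors to the cytoskeleton, though not all do, *kuz* being an exception. Of 35 tested, 1 rose and 15 fell in *nonstop* (18.7% and 17.0% of all genes), 2 rose and 16 fell in *sgf11* (16.4% and 14.1%) and 13 fell in both (11.8%), with a median log2 fold change of -0.31 and -0.36 against 0.006 and 0.015 over all genes. *Nost*, an F-BAR protein, had -1.76 ± 0.13 (FDR = 1.82e-08) in *nonstop* glia and -1.32 ± 0.13 (FDR = 5.49e-07) in *sgf11* glia, and *kuz*, a metalloprotease that cleaves Notch and Robo, had -0.87 ± 0.11 (FDR = 8.86e-06) in *nonstop* glia and -0.71 ± 0.11 (FDR = 8.74e-05) in *sgf11* glia. *kuz* and 4 more of these effectors, *dock*, *Rac1*, *Cdc42* and *tsr*, had been picked by the study on these libraries.

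*Mical*, an oxidoreductase that disassembles actin downstream of semaphorins and plexins, was chosen after its values were seen because it differed between the mutants. It was at 222.0, 268.3, 306.1 and 278.9 CPM in wild type, at 216.5, 214.1, 221.6 and 248.4 CPM in *nonstop* and at 418.6, 420.4, 440.0 and 332.7 CPM in *sgf11*. The *sgf11* libraries were above all others. Over wild type the log2FC of *nonstop* was -0.26 ± 0.11 (SE, FDR = 0.0739) and that of *sgf11* was 0.58 ± 0.11 (SE, FDR = 5.40e-04), and that of *nonstop* over *sgf11* was -0.84 (SE 0.12, FDR = 2.00e-04, edgeR quasi-likelihood test).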

How the data were processed

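Nuclear RNA of glial nuclei was sequenced from 12 libraries, 4 per genotype, grouped by the genotype in their sample records. The authors trimmed paired reads with Trimmomatic 0.32, mapped them on BDGP5 by TopHat2 2.0.13 with Bowtie2 2.2.4, and ran HTSeq 0.6.1 in union mode without strand to count reads per gene. The deposited values are whole counts per gene for 15682 genes. Entries that name no gene (96.1 to 96.7% of all counts, with non-unique alignments counted at each place) were left out. The deposited edgeR tables hold the authors' own comparisons, and their values were not used. The study's lists of called genes served to match the older identifiers of *hbs* and *Sema5c*.

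Tests were run with edgeR 4.0.16 (R 4.3.3, limma 3.58.1), and DESeq2 1.42.0 served as an alternative. Python 3.11.15 was used for tables (pandas 2.3.3, numpy 2.4.6) and plots (matplotlib 3.10.9). The filter kept 9966 genes, those above 1 CPM in 4 or more of the 12 libraries. All 12 libraries entered 1 quasi-likelihood fit with TMM factors, and p-values were adjusted by Benjamini-Hochberg over all genes kept, with FDR under 0.01 as the threshold. The common biological coefficient of variation was 0.154. Library sizes for CPM were scaled by TMM. The SE given for a fold change is the unshrunken coefficient over the square root of its F statistic. FPKM is that CPM per kilobase of merged exons in BDGP6 (Ensembl release 115), which differs from the authors' annotation. Counting error alone limits the genes near 1 CPM, which stands for about 6.6 to 11.8 reads. The procedure was tested on simulated data.

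Replicate libraries of a genotype differed by more than sampling noise in all 18 pairs (chi-square per degree of freedom 9.79 to 42.1), so each was counted as 1 sample. Alternatives were DESeq2, RLE size factors, library size alone, no filter, a stricter filter that counts the entries naming no gene, a fit of 2 groups, an FDR of 0.05, a replicate block and leaving out each library. All 41 genes were named, with values per library for genes called in both mutants that reached a log2 fold change of 1 and for those the study had picked, and for further genes chosen after their values were seen. From other lists, up to 2 genes that rose and 2 that fell with the largest mean change were named. The members and lists were chosen with earlier results of these data known.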

Additional observations from a re-analysis of the deposited data

Results flagged for a closer look

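Dixon's test was applied to the 123 groups of 4 libraries (41 genes in 3 genotypes) and picked out 4, where chance alone gives about 1 in 20 groups. *otk* in wild-type replicate 3 was at 80.5 CPM, above the other wild-type libraries at 59.5 to 61.0 CPM, and *uzip* in wild-type replicate 2 was at 164.6 CPM, above the others at 139.4 to 141.9 CPM. Both genes fell in both mutants also without that library. *Lar* in *sgf11* replicate 2 was at 104.6 CPM, below the others at 111.7 to 112.4 CPM. *beat-Ic* in *sgf11* replicate 3 was at 3.81 CPM, below the others at 7.01 to 7.50 CPM.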

How the results depend on the processing

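Over 123 fold changes (41 genes in 3 comparisons) and 8 alternatives, 914 of 948 values kept their side of the threshold, 7 lost a call, 27 gained one and 0 called values changed direction. With a library left out, 955 of 984 values kept their side, 21 lost a call and 8 gained one. Values that were not called changed sign in 74 cases, at most from a log2 fold change of 0.26. The calls of *bdl*, *uzip*, *Sema1b*, *otk* and *Ten-m* in both mutants held in every alternative that tested them. So did those of *fra*, *Sema1a*, *Ptp69D* and *hbs* in *nonstop* and of *Sema5c*, *side* and *rst* in *sgf11*. *hbs* and *Sema5c* could be matched only because the study had called them, so their stability is not independent evidence.

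In *nonstop*, genes called higher numbered 3 in the main fit, 5 with DESeq2, 7 with the stricter filter and 7 at an FDR of 0.05. In *sgf11*, 4 were higher in the main fit and 2 with library size alone. Genes higher in both mutants numbered 2, against 4 with DESeq2, 1 with library size alone, 5 with the stricter filter and 5 at an FDR of 0.05. Between the mutants the count was 0, 1 with DESeq2 (1 higher in *nonstop*) and 3 at an FDR of 0.05 (2 higher and 1 lower in *nonstop*). Against the main scaling, the median over all genes shifted on the log2 scale by -0.13 (*nonstop*) and -0.05 (*sgf11*) with library size alone, and by 0.15 and 0.12 with the stricter filter. The cause of these differences was not tested.

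Leaving out 1 library gave 10 to 12 calls in *nonstop* (3 to 5 higher, 6 to 9 lower), 8 to 12 in *sgf11* (2 to 6 higher, 6 to 7 lower) and 0 between the mutants, with 1 to 5 genes higher and 4 to 7 lower in both. The labels do not say whether replicate numbers pair the samples. Correlations of same-numbered libraries ran from -0.085 to 0.142, and those of other pairs from -0.184 to 0.173. The best match had the same number in 8 of 24 cases, which neither shows nor excludes a pairing. A replicate block gave 12 calls in *nonstop*, with *unc-5* gained (FDR = 0.00314 from edgeR), and 10 in *sgf11*, with *Ptp69D* lost (FDR = 0.0128). The lowest counts, down to 10 reads in a library, limit what can be detected for genes of a few CPM such as *NetA*.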
